A study of Mus musculus with 20 samples.

Results

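The genes described here are 10 cytokine genes of macrophages, chosen by name: Tnf, Il1a, Il1b, Il1rn, Il6, Il10, Il12b, Il15, Il27 and Tnfsf13b. All 10 were found by gene symbol among the 59311 annotated genes of the deposited table, and all 10 passed the filter on low values that left 17248 genes for testing (a mean normalized count of at least 10 in 1 or more of the 4 groups). Il12b passed it only through the Ly6Clo vehicle group.

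RNA was sequenced from Ly6Chi and Ly6Clo monocyte-derived macrophages (MoMac) of the fibrotic mouse liver, sorted by flow cytometry as CD11b+ F4/80+ cells that were negative for Ly6G, CD11c and CD3, and separated by their level of Ly6C. All 10 mice were male C57BL/6J animals, 10 to 12 weeks old when fibrosis was induced, and all had received carbon tetrachloride (CCl4, 0.6 ml/kg, 2 injections per week for 4 weeks), so no library came from a healthy liver. Vehicle (1% DMSO in PBS) was given to mice 11 to 15, and mice 16 to 20 were exposed to Ac-6-FP at 0.25 mg/kg. This compound holds the MR1 molecule in a form that does not activate mucosal-associated invariant T (MAIT) cells. Injections began 2 h before the last CCl4 dose and were repeated daily, and livers were taken 2 days after that dose. Both subsets were sorted from every mouse, about 30000 cells per library, for a total of 20 libraries and 5 libraries per group.

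Cytokines of macrophages fall into those that drive inflammation and those that hold it back. TNF and the agonists IL-1α and IL-1β activate endothelium, leukocytes and fibrogenic cells, and the IL-1 receptor antagonist, encoded by Il1rn, occupies the same receptor without signalling. IL-10 signals through STAT3 and represses the production of inflammatory cytokines by macrophages. IL-12, IL-15, IL-27 and BAFF (encoded by Tnfsf13b) act mostly on lymphocytes. In the injured liver, Ly6Chi cells are monocytes that have recently entered the tissue, whereas Ly6Clo cells are generally associated with the resolution of fibrosis.

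Values are normalized counts, that is reads on a gene divided by 1 size factor per library, without division by gene length. Reads on genes lay between 5693049 and 18682437 per library (median 13601180), and 0 allows up to 3 reads, a limit for counting error only. Ly6c2 (the Ly6C gene) matched the labels, at 4930 to 10012 in Ly6Chi and 284 to 1014 in Ly6Clo libraries, and the myeloid genes Itgam, Adgre1 and Csf1r and the leukocyte gene Ptprc were above 0 in all 20 libraries. The Ly6Clo library of mouse 13 stood apart, with 5343 genes detected and Itgam at 2.09, and several results, though not all that move with it, are also given without it. The number of genes detected was 10793 ± 2267 in Ly6Chi vehicle and 13411 ± 1604 in Ly6Chi Ac-6-FP libraries, and 10952 ± 3954 in Ly6Clo vehicle and 14024 ± 1880 in Ly6Clo Ac-6-FP libraries (SD, n = 5 each). Markers of other cell types moved with the subset (limma called 5.19% of all genes tested between the subsets). The summed level of the 10 T and NK cell markers was 0 to 1336 in Ly6Chi and 44176 to 99765 in Ly6Clo libraries, and limma called 7 of the 9 tested, all higher in Ly6Clo. It came mainly from Gzma, Nkg7, Klrb1c and Prf1, while Cd3e was at 0 in 10 of 10 Ly6Chi and 8 of 10 Ly6Clo libraries. The summed level of the 7 neutrophil markers was 4428 to 14794 in Ly6Chi and 10238 to 126127 in Ly6Clo libraries, mainly Retnlg in the latter, with Elane and Mpo higher in Ly6Chi MoMac, while Ly6g had a median of 0.84 and 1.41. Itgax, which encodes the CD11c that the gate excludes, was at 0 in all 10 Ly6Chi libraries and had a median of 1508 in Ly6Clo libraries. Of the other lists, 5 of 5 markers of Ly6Chi monocytes were higher in Ly6Chi libraries. Higher in Ly6Clo libraries were 2 of 6 markers of Ly6Clo macrophages, 2 of 6 of dendritic cells (Itgax and Flt3), 1 of 4 each of B cells, hepatocytes, endothelial cells and Kupffer cells, 0 of 2 of stellate cells, and 1 of 4 of the sorting markers (Ptprc, difference -0.68; limma, adjusted p = 0.00117), and no list had a marker called the other way except neutrophils.

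Of the members, 7 of 10 had an entry in RefSeq's promoter table (build GRCm38.p6, the same genome as mm10). The IL-1 genes are shown because the pair of agonists and their antagonist lie on 1 chromosome and act on 1 receptor. Each sequence is the 250 bases before 1 start site, read 5′ to 3′ on the strand of the gene. Of the entries of a gene, the start site nearest the 5′ edge of the deposited gene was taken, and no other was shown. Capitals mark TATAAA (the TATA box) and TGANTCA (an AP-1 motif), searched on both strands.
Il1a, chr2:129309973-129310222, minus strand: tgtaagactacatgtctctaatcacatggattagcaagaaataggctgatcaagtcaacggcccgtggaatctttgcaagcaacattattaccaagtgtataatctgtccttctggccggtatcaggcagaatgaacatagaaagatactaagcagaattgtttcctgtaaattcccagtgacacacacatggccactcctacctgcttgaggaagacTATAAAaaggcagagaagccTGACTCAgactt
Il1b, chr2:129371140-129371389, minus strand: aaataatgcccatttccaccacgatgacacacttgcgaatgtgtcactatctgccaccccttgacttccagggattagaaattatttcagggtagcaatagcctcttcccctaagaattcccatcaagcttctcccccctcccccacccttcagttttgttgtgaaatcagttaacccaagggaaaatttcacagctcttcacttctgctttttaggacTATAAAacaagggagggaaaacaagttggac
Il1rn, chr2:24336610-24336859, plus strand: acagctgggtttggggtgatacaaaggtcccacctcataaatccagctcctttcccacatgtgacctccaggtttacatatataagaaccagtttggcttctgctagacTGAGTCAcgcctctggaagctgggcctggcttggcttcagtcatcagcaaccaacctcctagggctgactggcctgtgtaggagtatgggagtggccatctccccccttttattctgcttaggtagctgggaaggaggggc
The window of Il1a held both motifs, that of Il1b TATAAA alone and that of Il1rn TGANTCA alone. Over 32544 promoter windows of the same length, TATAAA was found in 12.3% and TGANTCA in 6.73%. Such a match describes the letters and is not a measured binding site.

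Il10 was the member that differed most between the subsets. It lies on chromosome 1 (131018150 to 131024970, mm10). In Ly6Chi MoMac it was at 72.6 in vehicle mouse 11 and at 0 in the other 9 mice. In Ly6Clo MoMac of vehicle mice 11 to 15 it was at 861, 372, 1213, 623 and 405. In Ly6Clo MoMac of Ac-6-FP mice 16 to 20 it was at 335, 1002, 0, 2028 and 1184. Il10 was thus higher in Ly6Clo MoMac in 9 of 10 mice, and the mouse without a difference, mouse 18, had no Il10 reads in either subset. The within-mouse difference Ly6Chi minus Ly6Clo on the scale of log2(normalized count + 1) was -7.98 ± 1.05 (SE, n = 10 mice; limma, Benjamini-Hochberg adjusted p = 0.000426), and an exact sign-flip permutation test over mice gave a two-sided p of 0.00391, where the smallest that 10 mice allow is 0.00195. Without the Ly6Clo library of mouse 13 the difference was -7.73 (limma, adjusted p = 0.00135). With most Ly6Chi libraries at 0 the fitted difference depends on the pseudocount, and it was -10.64 with 0.1 and -5.33 with 10. In the Ac-6-FP mice, where all 5 Ly6Chi libraries were at 0, the Ly6Clo mean was about 380 times the 3-read limit averaged over the Ly6Chi libraries (910 against 2.4). This is a ratio of group means and no bound for each mouse, since mouse 18 was at 0 in Ly6Clo MoMac too.

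Il10 was the only 1 of the 10 members with an adjusted p under 0.05 between the subsets, where limma called 896 of 17248 genes (5.19%), 593 of them higher in Ly6Clo MoMac (3.44%). At an unadjusted p under 0.05, 5 of 10 members passed, beside 16.7% of all genes. The median difference of the 10 members was -2.22, beside -0.03 over all genes tested, and 9 of 10 had a difference below 0, as did 8824 of the 17248 genes tested. Of these 9, 8 did not pass, and Il1b and Il15 changed sign under some alternatives. The 9 include Il12b, which passed the filter only through the Ly6Clo vehicle group, so its direction adds nothing to this count or to the median. No member had subsets that did not overlap, which 1.4% of all genes had. The summed level of the T and NK cell markers, the neutrophil genes Retnlg and Cxcr2 and Itgax rose in the same direction as Il10, while the neutrophil genes Elane and Mpo went the other way. The part of these cells in the Il10 difference was not tested. In bulk RNA, fewer cells that express a gene and less RNA per cell cannot be told apart.

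**Figure D1:**
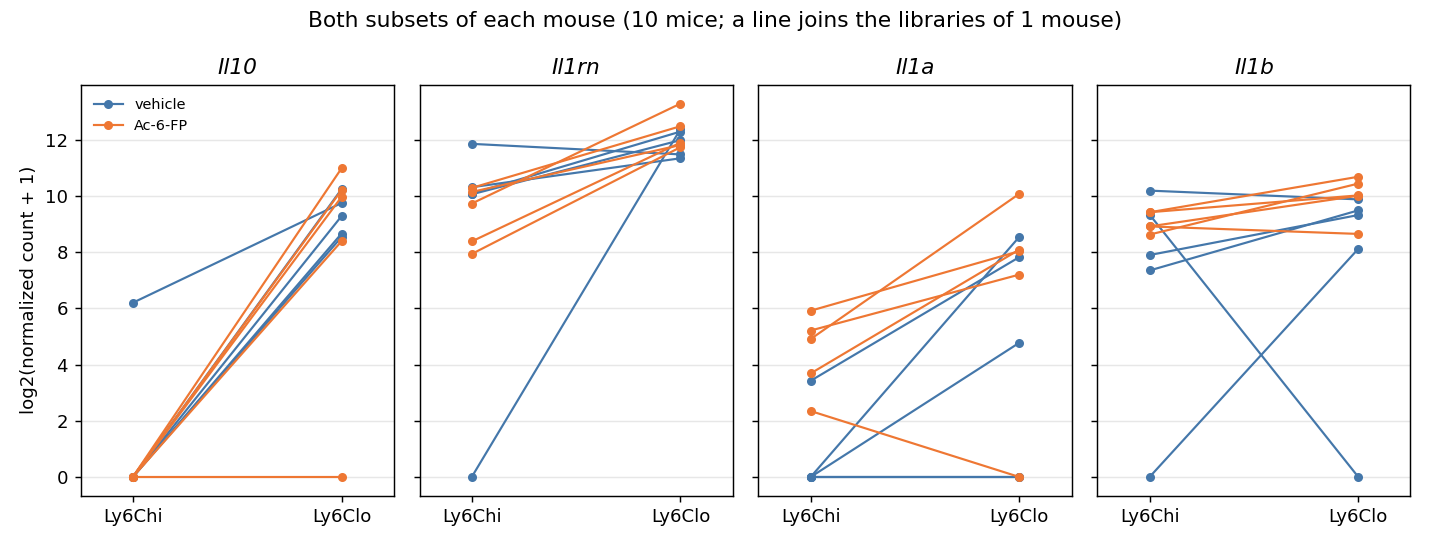
Levels of Il10, Il1rn, Il1a and Il1b as log2(normalized count + 1) in the Ly6Chi and the Ly6Clo library of each of 10 mice; a line joins the libraries of 1 mouse, blue for vehicle and orange for Ac-6-FP. Il10 lines rise in 9 of 10 mice, Il1rn lines also in 9 of 10, and Il1b lines in 7 of 10.

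Il1rn, the receptor antagonist, had the highest mean of the members over the 20 libraries (2870 normalized counts). In Ly6Chi MoMac it was at 1087, 0, 1067, 3708 and 1271 in vehicle mice 11 to 15. In Ly6Chi MoMac of Ac-6-FP mice 16 to 20 it was at 244, 333, 1249.9, 1131 and 849. Ly6Clo MoMac had 5019.6, 5336, 4066, 2858 and 2597 in vehicle mice and 3416, 3820.5, 5727, 3603 and 10012 in Ac-6-FP mice. The Ly6Clo library was the higher in 9 of 10 mice, mouse 14 being the exception, and the ranges overlapped only through the Ly6Chi library of mouse 14. The difference was -3.19 ± 0.94 on the log2 scale (SE, n = 10), which did not pass the threshold after adjustment (limma, adjusted p = 0.0790), while the exact sign-flip permutation test gave a two-sided p of 0.00391. The spread came largely from mouse 12, whose Ly6Chi library had no Il1rn reads. Without mouse 12 the difference was -2.17 with a limma adjusted p of 0.0111, and without any other single mouse the adjusted p stayed above 0.05. Il1rn also passed with a pseudocount of 10 (adjusted p = 0.0220), with quantile normalization (0.0418) and with array weights (0.0175) in limma. It was further from passing with a pseudocount of 0.1 (limma, adjusted p = 0.161), without a filter (0.127) and in edgeR (0.142 to 0.202 over 3 settings).

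The agonist Il1b (chromosome 2, 129364577 to 129371142) was expressed in both subsets at overlapping levels. Its values in Ly6Chi MoMac were 1169, 0, 647, 238 and 162 in vehicle mice and 483, 483, 395, 685 and 686 in Ac-6-FP mice. In Ly6Clo MoMac they were 942, 278, 0, 640.1 and 718 in vehicle mice and 401, 1031, 1391, 1646 and 1039 in Ac-6-FP mice. The single library at 0 in each subset was that of mouse 12 in Ly6Chi and that of mouse 13 in Ly6Clo MoMac. The difference between the subsets was -0.65 with a 95% interval from -3.18 to 1.88 (limma, adjusted p = 0.787). Without the Ly6Clo library of mouse 13 it was -1.76 (limma, adjusted p = 0.212), and without mouse 12 it was 0.18.

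The ratio of Il1rn to Il1b normalized counts was compared between the subsets. It is not corrected for length and so does not say which of the genes is the more abundant. The ratio ran from 0.506 to 15.6 (median 1.65) in the 9 Ly6Chi libraries with Il1b above 0. In the 9 such Ly6Clo libraries it ran from 2.19 to 19.2 (median 4.47). It was higher in Ly6Clo MoMac in 6 of the 8 mice with both ratios, by a median of 3.35-fold over the 8 mice. These were every Ac-6-FP mouse and vehicle mouse 11. Vehicle mice 14 (4.47 in Ly6Clo against 15.6 in Ly6Chi MoMac) and 15 (3.62 against 7.84) went the other way. The ranges overlapped, and the ratio was given no test of its own.

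Il1a, the other agonist, was low in Ly6Chi MoMac. In vehicle mice it was at 9.74 in mouse 11 and at 0 in the other 4. In Ac-6-FP mice 16 to 20 it was at 11.9, 4.09, 59.5, 36.1 and 29.1. Ly6Clo MoMac had 226, 374, 0, 0 and 26.5 in vehicle mice and 272, 0, 262, 146 and 1083 in Ac-6-FP mice, so most but not all Ly6Clo libraries lay above the Ly6Chi libraries. The Ly6Clo library was the higher in 7 of 10 mice, and the difference of -2.91 ± 0.99 (SE, n = 10) did not pass (limma, adjusted p = 0.136; exact sign-flip permutation p = 0.0312), except with array weights, where the adjusted p was 0.0453.

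Tnf was found in few Ly6Chi libraries. It was at 53.1 in vehicle mouse 11, at 92.5 in Ac-6-FP mouse 18 and at 14.9 in Ac-6-FP mouse 20, and at 0 in the other 7. In Ly6Clo MoMac it was at 188, 0, 0, 1.78 and 138 in vehicle mice and 74.7, 173, 0, 226 and 161 in Ac-6-FP mice. The difference between the subsets, -2.87 ± 1.31 (SE, n = 10), did not pass (limma, adjusted p = 0.293; exact sign-flip permutation p = 0.0703). Il6, a further inflammatory cytokine and inducer of the acute phase response, stayed at or under 60.9 in Ly6Chi and 164 in Ly6Clo MoMac, with 5 and 2 of 10 libraries at 0, and its difference of -1.25 had an interval from -3.55 to 1.05.

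Among the cytokines that act on lymphocytes, Il27, which encodes the p28 subunit of IL-27, was the single member with a higher mean log2 level in Ly6Chi MoMac. In that subset it was at 36.3, 345, 159.7, 329.6 and 2.97 in vehicle mice and 12.5, 63.0, 81.2, 140.9 and 11.2 in Ac-6-FP mice. In Ly6Clo MoMac it was at 11.0, 9.91, 0, 0 and 85.1 in vehicle mice and 93.7, 89.7, 3.59, 131 and 50.1 in Ac-6-FP mice. The subsets overlapped, and the difference of 1.68 ± 1.27 (SE, n = 10) did not pass (limma, adjusted p = 0.530). It was 1.05 without the Ly6Clo library of mouse 13 and 0.41 with array weights. The Ly6Chi library was the higher in 6 of 10 mice, 4 of 5 with vehicle and 2 of 5 with Ac-6-FP. Ebi3, which encodes the other chain of IL-27, went the other way: it was at 122 to 506 in Ly6Chi and 530 to 1520 in Ly6Clo MoMac, without overlap, a difference of -1.85 ± 0.32 (limma, adjusted p = 0.00327). Il12b, the shared p40 subunit of IL-12 and IL-23, was at 0 in all 10 Ly6Chi libraries and above 0 in 3 of 10 Ly6Clo libraries, at 13.6, 111 and 47.3. Il15, which sustains NK cells, ran from 0 to 183 in Ly6Chi and from 0 to 516 in Ly6Clo MoMac, with 4 and 3 libraries at 0. Its highest Ly6Clo value was that of mouse 13, and the next was 120 in mouse 18. Tnfsf13b ran from 0 to 411 in Ly6Chi (5 libraries at 0) and from 0 to 609 in Ly6Clo MoMac (1 at 0). The differences of Il15 (-0.92) and Tnfsf13b (-2.81) had limma adjusted p-values of 0.769 and 0.283. That of Il12b was -1.63 (limma, adjusted p = 0.343). Its direction carries no weight, since Il12b passed the filter only through the Ly6Clo vehicle group. Without the Ly6Clo library of mouse 13 the Il15 difference was -0.016 (limma, adjusted p = 0.998).

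**Figure D2:**
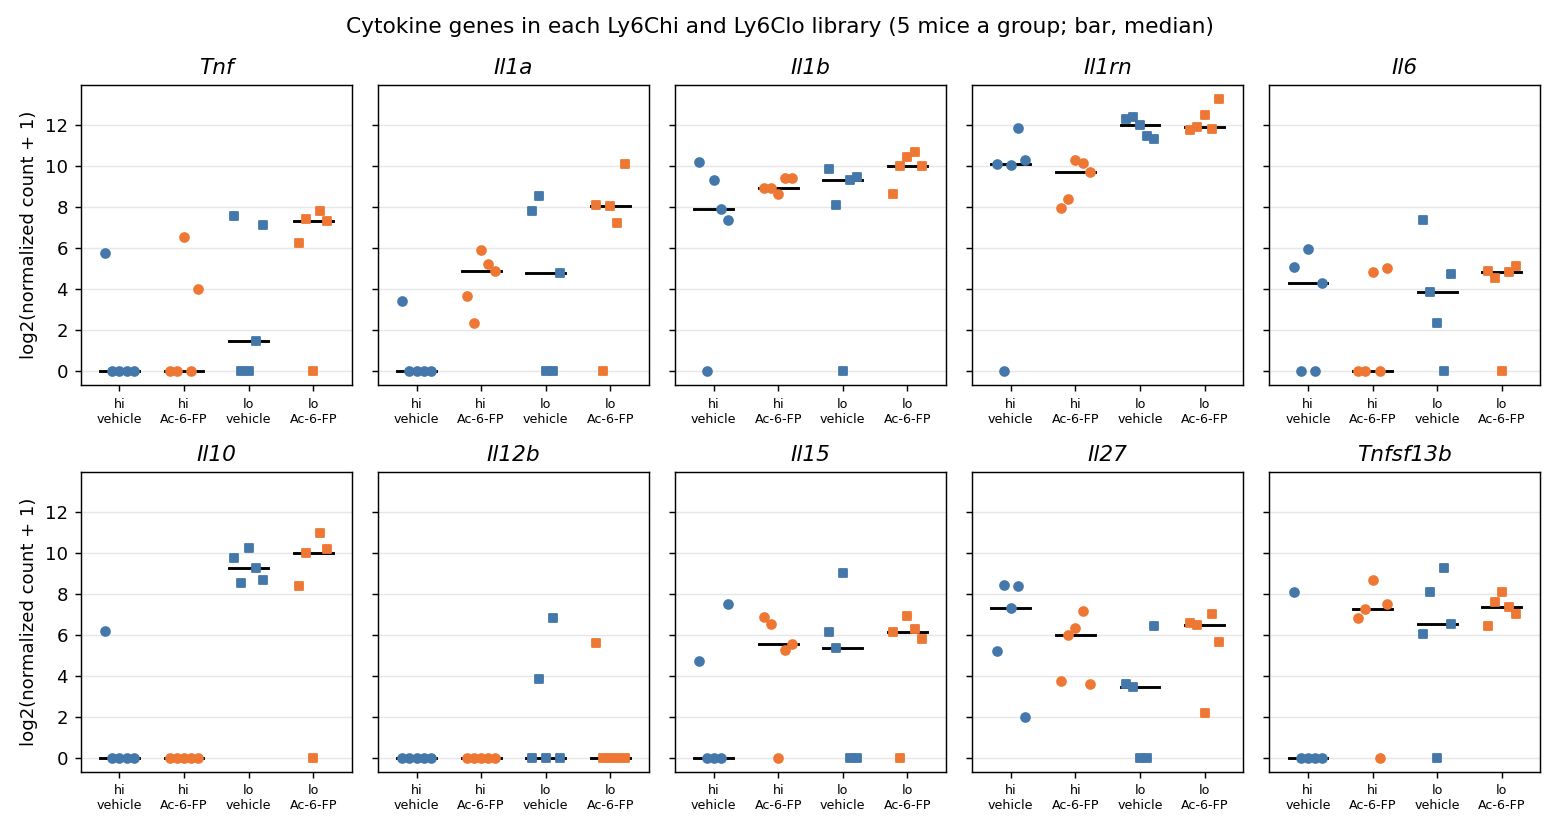
Level of each of the 10 cytokine genes as log2(normalized count + 1) in the 4 groups, 5 libraries each (circles, Ly6Chi; squares, Ly6Clo; blue, vehicle; orange, Ac-6-FP); the bar is the median. Il10 is at 0 in 9 of 10 Ly6Chi libraries, and for most other genes at least 1 library at 0 stands beside libraries with high normalized counts.

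Levels were put in order within a subset per kilobase of exon (GENCODE vM21, the bases of all exons of a gene), as medians over 10 libraries. Reads were counted on constitutive regions only, which can be shorter than this exon length, so the order is approximate. In Ly6Chi MoMac the order began with Il1b (253 normalized counts per kb), Il1rn (195) and Il27 (70.6), the other 7 genes having medians of 14.0 or less. In Ly6Clo MoMac it began with Il1rn (712), Il10 (566), Il1b (435), Il1a (94.4) and Tnf (64.9). The ranges of neighbours in both orders overlapped, and whether neighbours differ within a library was not tested.

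The genes whose levels followed a member most closely were looked up for the 3 members with the highest mean, by Pearson's r of log2(normalized count + 1) over 20 libraries among 5812 genes with a mean of at least 100. For Il1rn these were Eif1ad (r = 0.924), Clec10a (0.915) and Denr (0.906). For Il10 they were Gm4956 (r = 0.947), Acod1 (0.919) and Ear2 (0.900). For Il1b they were Tcf25 (r = 0.969), Pcyox1 (0.968) and Ciao1 (0.964). The libraries share subset and depth, and a library at 0 for both genes weighs heavily in such an r.

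Receptors and partners of these cytokines were taken from fixed lists. Of 16 receptor genes tested, 4 were higher in Ly6Clo MoMac, beside 3.44% of all genes tested. None was higher in Ly6Chi MoMac and 12 did not pass, with a median difference of -0.86 over the list. Il2rb, the shared β chain of the IL-2 and IL-15 receptors, had a median of 0 in Ly6Chi and 621 in Ly6Clo MoMac (difference -7.29 ± 1.00; limma, adjusted p = 0.000553). Il2rg, the common γ chain, was at 3177 to 6793 in Ly6Chi and 18677 to 33509 in Ly6Clo MoMac (-2.15 ± 0.09; limma, adjusted p = 2.18e-08). Il12rb2 (-4.95) and Il27ra (-4.53), chains of the IL-12 and IL-27 receptors, also passed in limma (adjusted p = 0.0158 and 0.0170), although Il27ra did not in edgeR (adjusted p = 0.179). In limma, Il12rb2 did not pass without mouse 11, 16, 17, 19 or 20 (adjusted p = 0.0522 to 0.0577), nor Il27ra without mouse 11, 15, 16, 17, 19 or 20 (0.0515 to 0.0561). Il27ra was at 0 in all 10 Ly6Chi libraries, and Il2rb and Il12rb2 had a median of 0 there. The fitted differences of these genes therefore depend on the pseudocount. These receptor chains are found on T and NK cells, whose markers had a summed level of at most 1336 in Ly6Chi and at least 44176 in Ly6Clo MoMac. Of these markers 7 were called higher in Ly6Clo MoMac, and the T cell genes Cd3d and Cd3g did not pass. The part of such cells in the receptor values was not tested. Of 6 partner and processing genes tested, Ebi3 was called and 5 were not, where 5.19% of all genes were called.

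Ac-6-FP was compared with vehicle to ask whether keeping MAIT cells inactive changed the MoMac. It gave no member with an adjusted p under 0.05 in Ly6Chi MoMac by limma, where 13 of 17248 genes (0.0754%) were called, and none by edgeR, where no gene was called. At an unadjusted p under 0.05 limma passed 1 of the 10 members and 8.73% of all genes. That member was Il1a, above 0 in 5 of 5 Ac-6-FP and 1 of 5 vehicle mice, with overlapping ranges. Its difference was 3.73 ± 0.97 (SE, 5 against 5 mice; limma, adjusted p = 0.366), and an exact permutation test gave a two-sided p of 0.0159, where the smallest that 5 against 5 allow is 0.00794. With most vehicle libraries at 0, the size of this difference depends on the pseudocount. The Ac-6-FP libraries also had more genes detected. With that number as a covariate the Il1a difference was 2.77 (limma, adjusted p = 0.906), and without vehicle mouse 11 it was 4.41 (adjusted p = 0.0643).

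Tnfsf13b in Ly6Chi MoMac was at 274 in vehicle mouse 11 and at 0 in the other 4 vehicle mice, against 114, 151, 411, 0 and 179 in Ac-6-FP mice. Its difference of 4.43 had an interval from -0.53 to 9.39 (limma, adjusted p = 0.619). The Tnfsf13b value was 2.18 with genes detected as a covariate, 1.55 in edgeR with TMM and 6.05 without vehicle mouse 11. Il15 (2.4), Il1b (2.11), Tnf (0.96) and Il1rn (0.83) were also above 0, and Il27 (-0.89), Il6 (-1.09) and Il10 (-1.24) below 0, with limma adjusted p-values between 0.687 and 0.958. The Il1b value rests on vehicle mouse 12, whose library had no Il1b reads, and it was 0.37 without that mouse, 0.16 with genes detected as a covariate and 0.27 in edgeR. The sign of Il1rn also rests on vehicle mouse 12: it was -1.28 without that mouse and -0.89 in edgeR with TMM, and its median was 1087 in vehicle and 849 in Ac-6-FP mice. Il15 was -0.42 with genes detected as a covariate, and Tnf was -0.15 without mouse 18. The Il10 value rests on the reads of vehicle mouse 11 alone, and it was -3.25 with genes detected as a covariate (limma, adjusted p = 0.525) and -7.15 in edgeR with TMM (adjusted p = 0.487). Il12b has no difference, with all libraries at 0. The median difference of the 10 members was 0.90, beside 0.35 over all genes tested, of which 62.9% were above 0. Groups of no member were free of overlap, which 1.35% of all genes were.

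In Ly6Clo MoMac no member passed either, by limma, where 9 of 17248 genes (0.0522%) were called, or by edgeR, where no gene was called. At an unadjusted p under 0.05 no member passed, beside 9.31% of all genes. The differences were 2.90 for Il27, 2.60 for Il1b, 2.54 for Tnf, 2.45 for Il1a, 1.31 for Tnfsf13b, 0.92 for Il15, 0.35 for Il1rn, 0.21 for Il6, -1.02 for Il12b and -1.39 for Il10, with limma adjusted p-values of 0.564 or more. Several of them moved without the Ly6Clo library of mouse 13, where Il1b was at 0: Il1b was then 0.76, Il1a 1.39, Tnf 1.73, Il27 2.23, Il15 2.14, Il12b -1.55, Tnfsf13b -0.18 and Il6 -0.11, with limma adjusted p-values of 0.668 or more. The Ac-6-FP libraries of this subset too had more genes detected, and with that number as a covariate Il27 was 1.16, Il1b 0.36, Il1a 0.40, Tnfsf13b 0.22 and Tnf -0.44. The narrowest interval was that of Il1rn, from -0.42 to 1.11. The sign of Il12b carries no weight here either, since it passed the filter only through the vehicle group of this subset. For Il10 the values of the 2 groups overlapped widely (372 to 1213 in vehicle and 0 to 2028 in Ac-6-FP mice). Without mouse 18, whose library had no Il10 reads, its difference was 0.59. The median difference of the members was 1.12 beside 0.91 over all genes, and without the library of mouse 13 it was 0.56 beside 0.35. No member had groups without overlap, which 1.5% of all genes had.

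**Figure D3:**
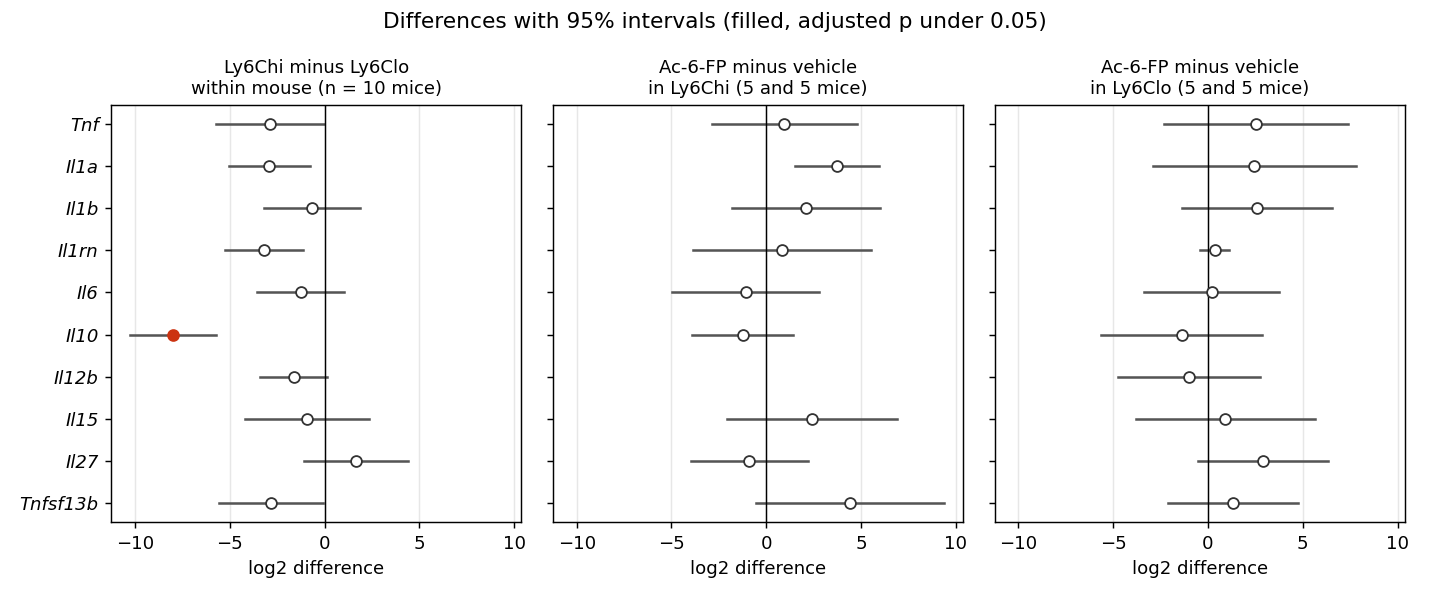
Log2 differences of the 10 cytokine genes with 95% intervals from limma, for Ly6Chi minus Ly6Clo within mouse (10 mice) and for Ac-6-FP minus vehicle in each subset (5 and 5 mice); filled points have an adjusted p under 0.05, and Il12b has no point in Ly6Chi MoMac, where it is at 0. Il10 between the subsets, at -7.98, is the single filled point.

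Whether the Ac-6-FP difference itself was unequal in the 2 subsets was asked with the within-mouse difference, 5 Ac-6-FP against 5 vehicle mice. No gene of 17248 had an adjusted p under 0.05 in limma (0.0%) or in edgeR, and 840 genes (4.87%) and no member had an unadjusted p under 0.05 in limma. Among members the value furthest from 0 in limma was that of Il27, -3.80 with an interval from -9.03 to 1.44 (limma, adjusted p = 0.830; exact permutation p = 0.190). Its levels in Ly6Chi MoMac had a median of 159.7 in vehicle and 63.0 in Ac-6-FP mice, and in Ly6Clo MoMac of 9.91 and 89.7. Tnfsf13b followed with 3.12 (interval -2.29 to 8.53), and the other 8 members lay between -1.58 and 1.48. Without the Ly6Clo library of mouse 13, Il27 was at -2.86 and Tnfsf13b at 4.21. In edgeR with TMM the order changed, with Tnfsf13b at 7.86 and Il27 at -5.25, and Il1a (3.72), Il6 (-3.26), Tnf (-3.23) and Il15 (3.13) were also larger in size than in limma. Such intervals leave room for large changes in either direction.

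Detection of the members tended to rise with the number of genes detected in a library, a relation that was not tested. Exceptions were the Ly6Clo library of mouse 12 (9 members above 0, with 56.3% of the tested genes above 0) and the Ly6Chi library of mouse 19 (5 members, with 71.3%). In Ly6Chi MoMac the number of members above 0 was 1 to 9 (median 4) in vehicle and 5 to 8 (median 6) in Ac-6-FP libraries. In Ly6Clo MoMac it was 4 to 9 (median 8) and 6 to 10 (median 9). The Ly6Chi library of mouse 12 had Il27 as the single member above 0 and 48.8% of the tested genes above 0. That of mouse 11, the vehicle library with 9 members above 0, had 75.7% of the tested genes above 0. The Ly6Clo library of mouse 13 had 4 members above 0, with 29.5% of the tested genes above 0.

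**Figure D4:**
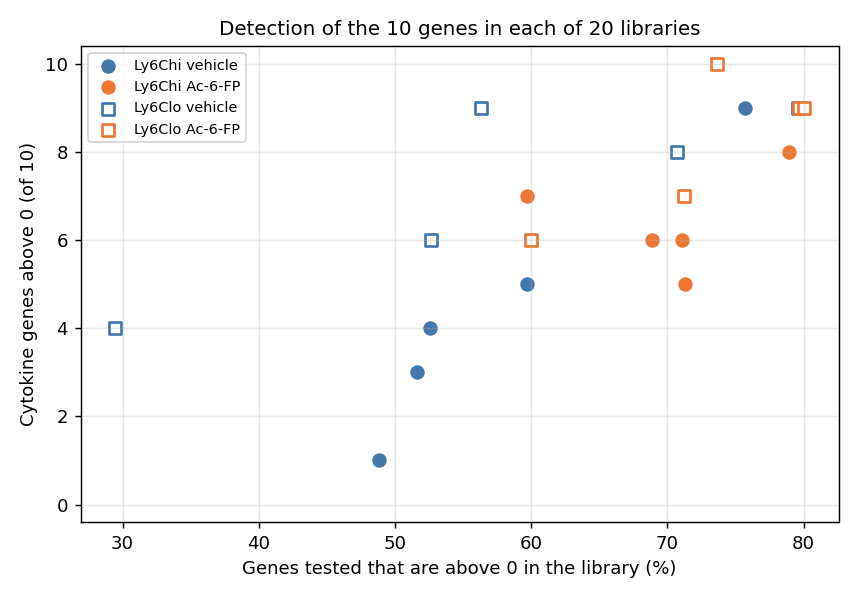
Number of the 10 cytokine genes above 0 (vertical axis) against the percentage of tested genes above 0 (horizontal axis) in each of 20 libraries (circles, Ly6Chi; squares, Ly6Clo; blue, vehicle; orange, Ac-6-FP; Ly6Clo points are open). Libraries with fewer genes above 0 tend to have fewer of the 10, with exceptions such as the Ly6Clo library of mouse 12 (9 of 10), and the range is from 1 of 10 in the Ly6Chi library of mouse 12 to 10 of 10 in the Ly6Clo library of mouse 16.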

How the data were processed

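RNA of 20 libraries (2 subsets of 10 mice) was measured by sequencing 75-base reads. According to the Methods, the authors aligned them with STAR 2.4.0 to mm10, took read counts from the constitutive regions of FAST DB genes, and normalized with DESeq2. The deposited values are a signal, namely gene counts divided by 1 size factor per library. Columns were matched to mice by their number and letter. Each library's values were multiples of 1 step, and dividing by it gave whole reads for 99.97% of values above 0 (tolerance 0.006). The step of the Ly6Chi library of mouse 15 lies near 1, so whole values there cannot be told from rounding.

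Values were analysed as log2(normalized count + 1) with limma 3.58.1 in R 4.3.3: the within-mouse difference over 10 mice, 5 against 5 mice within each subset, and 5 against 5 on the within-mouse difference. Variance priors followed the mean level, and p-values were adjusted by Benjamini-Hochberg over 17248 genes (threshold 0.05). Single genes had two-sided exact permutation tests over 1024 sign flips or 252 splits. Both libraries of a number are 1 mouse by the labels, although their residuals had a median correlation of only 0.0338 (1 of 10 mice over 0.1). Alternatives were other pseudocounts, filters and normalizations, array weights, a genes-detected covariate, edgeR 4.0.16 on recovered reads, and each mouse left out. The members and lists were chosen with earlier results of these data known. Named by rule were the 10 members, list genes past the threshold, and for 3 members the 3 genes most correlated with each. Python 3.11.15, pandas 2.3.3 and scipy 1.17.1 were used.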

Additional observations from a re-analysis of the deposited data

Results flagged for a closer look

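Of 37 member groups of 5 libraries with any spread, 16 held a library whose gap to the nearest other library exceeded Dixon's 95% critical value of 0.71 of the group's range. For normally distributed values chance flags about 1 in 20 groups. That rate does not hold here, since many values are 0, and a group with 4 libraries at 0 and 1 above 0 is flagged by construction. The groups are also not independent, since a few libraries account for most of the flags. In Ly6Chi vehicle libraries, mouse 11 was the highest for Tnf (53.1), Il1a (9.74), Il10 (72.6) and Tnfsf13b (274), with the other 4 libraries at 0 in each case. It also had the most genes detected of that group (14606). Mouse 12 was the lowest of that group for Il1b (0) and Il1rn (0) and had the fewest genes detected (9017). In Ly6Clo vehicle libraries, mouse 13 was the lowest for Il1b (0), with 5343 genes detected.

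In Ly6Clo Ac-6-FP libraries, mouse 18 was the lowest for Tnf (0), Il6 (0), Il10 (0) and Il27 (3.59) and had the fewest genes detected of its group (11156). Mouse 17 was the lowest of that group for Il1a (0) and Il15 (0), and mouse 16 the highest for Il12b (47.3). In Ly6Chi Ac-6-FP libraries, mouse 18 was the lowest for Il15 (0) and mouse 19 for Tnfsf13b (0). The part of detection in these values was not tested.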

How the results depend on the processing

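Il10 kept its direction and its adjusted p under 0.05 between the subsets under every alternative, from 5.43e-05 to 0.00356, and no member passed in an Ac-6-FP comparison under any alternative. The number of members called between the subsets was 2 with a pseudocount of 10 and with quantile normalization (Il10 and Il1rn), 3 with array weights (also Il1a), and 1 to 2 with 1 mouse left out. The cause of these changes was not tested. Genes called between the subsets (896) numbered 1512 with array weights, 1702 when genes detected entered as a covariate, 584 in edgeR with TMM and 467 in edgeR without mouse 15 (a setting chosen after seeing the data), and 642 to 1162 with 1 mouse left out. Of the 896, 303 were higher in Ly6Chi MoMac, against 979 of 1702 with genes detected as a covariate and 491 of 1108 with quantile normalization. With quantile normalization the median difference of all genes moved from 0.35 to -0.015 in Ly6Chi and from 0.91 to 0.021 in Ly6Clo MoMac with Ac-6-FP. Genes called with Ac-6-FP in Ly6Chi MoMac (13) numbered 5 without a filter, 4 with a filter at 100, and 0 with quantile normalization, with genes detected and in edgeR with TMM, with the deposited size factors or without mouse 15. In Ly6Clo MoMac (9) they numbered 2 with a pseudocount of 10, without a filter, with a filter at 100, with genes detected or without the library of mouse 13, and 0 with quantile normalization and in edgeR with TMM or the deposited size factors. With 1 mouse left out the counts were 0 to 133 (the most without mouse 11) and 0 to 103 (also without mouse 11).

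Without the pairing by mouse (no replicate block), 896 genes were called between the subsets, and 3 in place of 0 for the unequal change with Ac-6-FP, none of them a member. That last count was 2 with a filter at 100, 1 with quantile normalization, 0 to 4 with 1 mouse left out and 2851 when the vehicle mean was taken as a fixed reference, a setting that leaves out the spread between vehicle mice.

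Among members, differences that changed sign under an alternative are given here, and none of them was called in either setting. Leaving out the library of mouse 13 is, for paired comparisons and in Ly6Clo MoMac, the same fit as leaving out that mouse. Between the subsets, Il15 was 0.045 with array weights and Il1b 0.059 with genes detected. With Ac-6-FP in Ly6Chi MoMac, Il1rn was -0.89, -0.91 and -0.94 in edgeR (TMM, deposited size factors, no mouse 15), and with genes detected Il15, Il1rn, Il27 and Tnf were -0.42, -0.40, 0.75 and -0.36. In Ly6Clo MoMac, edgeR with TMM gave 0.38 for Il10, -0.95 for Il15, -0.90 for Il6 and -0.38 for Tnfsf13b, and with the deposited size factors 0.39, -0.96, -0.88 and -0.30. There Il6 was -1.64 and Tnf -0.44 with genes detected, Il6 -0.11 and Tnfsf13b -0.18 without the library of mouse 13, Il6 -0.00031 with a pseudocount of 10, and Il15 -0.060 and Il6 -2.45 with quantile normalization. For the unequal change, Il10 was -2.06 and Il1b 0.58 with array weights. Il10, Il1b and Il1rn were -2.61, 0.26 and -0.91 in edgeR with TMM and -2.68, 0.18 and -0.93 with the deposited size factors, and Il10 and Il1rn -3.01 and -0.55 without mouse 15. Il1b was 0.35 with genes detected. Il10, Il15 and Il1b were -0.40, -0.35 and 1.94 without the library of mouse 13. Il1a and Il1rn were -0.20 and -0.16 with a pseudocount of 10, and Il10 and Il6 -0.023 and 0.91 with quantile normalization. With 1 mouse left out, signs changed for Il1b between the subsets (-1.76 to 0.18). They changed in Ly6Chi MoMac for Il1rn (-1.28 to 1.68) and Tnf (-0.15 to 2.11). They changed in Ly6Clo MoMac for Il6 (-0.70 to 1.18), Tnfsf13b (-0.18 to 2.13), Il12b (-2.14 to 0.15), Il15 (-0.11 to 2.18) and Il10 (-2.15 to 0.59). For the unequal change they did so for Il1rn (-1.75 to 1.44), Il10 (-1.83 to 1.27), Il15 (-0.35 to 3.78), Il1b (-2.42 to 1.94) and Il12b (-0.15 to 2.14). Members at few reads in most libraries limit these comparisons, and a 0 allows up to 3 reads.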

Other observations

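Other cytokine genes, outside the 10 members, also differed between the subsets. Of 10 tested, 3 were higher in Ly6Clo MoMac, beside 3.44% of all genes tested, and 7 did not pass. Ifng, the interferon of T and NK cells, had a median of 0 in Ly6Chi and 783 in Ly6Clo MoMac (log2 difference -7.25 ± 1.19; limma, adjusted p = 0.00229). Il4 was at 0 in all Ly6Chi libraries and had a median of 57.2 in Ly6Clo MoMac (-5.39; limma, adjusted p = 0.000838; edgeR, 0.149), a fitted difference that depends on the pseudocount. Il18bp, which binds and neutralizes IL-18, had medians of 0 and 58.0 (-4.34; limma, adjusted p = 0.0216; edgeR, 0.0537), and it did not pass in limma without mouse 11, 12, 16, 17, 18 or 19 (adjusted p = 0.0560 to 0.0676). The summed level of the T and NK cell markers rose in the same direction, and their part in these values was not tested.

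None of 15 signalling genes (such as Stat3, Socs3 and Myd88) or of 6 genes of cytokine mRNA decay (such as Zfp36 and Zc3h12a) passed between the subsets, where 5.19% of all genes did, with median log2 differences of 0.15 and -0.73. No gene of the receptor, partner, other cytokine, signalling or decay lists passed with Ac-6-FP in either subset by limma.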
